A study of Homo sapiens with 9 samples.

Results

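The BCL2 family decides whether a cell keeps its mitochondria intact or releases the factors that start caspase-driven death. Survival members such as BCL2, BCL-XL (encoded by BCL2L1), MCL1 and BFL1 (encoded by BCL2A1) hold the pore-forming members BAX and BAK1 in check, and BH3-only members such as BID, BIK, BIM (encoded by BCL2L11) and NOXA (encoded by PMAIP1) neutralise the survival members or activate the pore-formers. Germinal centre B cells usually keep BCL2 low and depend on other survival members, while MCL1 is known as a survival factor of plasma cells and many myelomas. The members described here were all probe sets whose only platform symbol was one of 10 genes, 4 survival members and 6 death members (BAX, BAK1 and 4 BH3-only genes), and they came to 23 of 22215 probe sets, or 10 of 11963 genes that could be named. MCL1 had 5 probe sets, BCL2 had 4, BCL2L1 had 3, BAX, BID, BCL2L11 and PMAIP1 had 2 each, and BCL2A1, BAK1 and BIK had 1 each.

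The study hybridised RNA of 6 human cell lines, grown in serum-supplemented medium, to 9 Affymetrix Human Genome arrays. Titles of the B-cell lymphoma arrays say untreated, and those of the myeloma arrays give the line name alone. The B-cell group was the Burkitt lymphoma line Namalwa with the diffuse large B-cell lymphoma lines SU-DHL4 and SU-DHL6 (2 arrays a line), and the plasma cell myeloma (PCM) group was L363, U266 and LP1 (1 array a line). The contrast of the title is PCM versus B-cell expression, made there in a study of plasmacytic features of Hodgkin lymphoma. Each line is a single established culture, nothing says that duplicate arrays came from separate cultures, and the Namalwa arrays came from an earlier series of the same group, so that line and source cannot be told apart for Namalwa.

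The arrays carried the markers of their labelled class. The mean over the 5 B-cell markers that could be named of 6 lay between 10.63 and 11.06 (RMA value, log2) in the B-cell lines and between 6.88 and 7.36 in the PCM lines, and the mean over 5 plasma cell markers lay between 7.19 and 8.31 in the B-cell lines and between 10.70 and 11.03 in the PCM lines. Means over markers of other cells stayed low in every line, from 6.40 to 6.64 for T and NK cells, 5.18 to 5.28 for myeloid cells, 6.59 to 6.86 for red cells and platelets, and 6.27 to 6.60 for epithelium, fibroblasts and endothelium. CCND1, the cyclin gene that U266 is known to express through a translocation, read 6.02 on the array labelled U266 at its brighter probe set. The other lines read 5.82 to 6.19 there. FGFR3, known for its translocation in LP1, read 8.48 on LP1 against 5.94 to 6.34 elsewhere at its brighter probe set. At its dimmer one LP1 read 5.94 against 5.29 to 5.72 elsewhere. NSD2, also read as a line marker, was highest in LP1 at its brightest probe set only (9.886, against 9.736 in SU-DHL4). At its other probe sets LP1 read 9.266 against 9.279 in SU-DHL4, and 9.185 against 9.293 in SU-DHL6. The L363 and U266 arrays differed by a standard deviation of 0.32 over all probe sets, less than the SU-DHL6 duplicates (0.347). Duplicate arrays of SU-DHL4 (0.236) and of Namalwa (0.217) lay closer together than L363 and U266. LP1 stood 0.55 from L363. The U266 array is named here after its label, and its identity was not tested. Tests that count PCM lines take L363 and U266 as separate lines, which these values leave in doubt. RMA gives no detection call, and 14 of the 23 member probe sets lay above the median level of all probe sets (7.03), so a low value is not read as absence. A log2 value of 1 probe set is compared across lines only, never with that of another probe set, and the main probe set of a gene is its brightest one not of the _x_at type.

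Promoter sequences of members that the results turn on are shown here as RefSeq gives them on GRCh38.p14, from 250 bases before to 50 bases after the gene start, 5′ to 3′ along the gene. The RefSeq table held 8 of the 10 members, MCL1 and BIK not among them. The genes shown were chosen, each with a motif that its window matched. BCL2 and BID also passed a test between B-cell lines and are not shown, and the BCL2 window matched none of the motifs searched. BCL2A1 (chr15:79971147-79971446, minus strand) and BAK1 (chr6:33580227-33580526, minus strand) passed the test between B-cell lines. They are shown with matches to the PU box letters GAGGAA on either strand in capitals. BAX (chr19:48954625-48954924, plus strand) passed the same test and is shown with the E-box letters CACGTG in capitals. PMAIP1 (chr18:59899746-59900045, plus strand) had the largest difference between the classes among the members and is shown with the letters ACGTCA, a part of the cyclic AMP response element, in capitals.
BCL2A1: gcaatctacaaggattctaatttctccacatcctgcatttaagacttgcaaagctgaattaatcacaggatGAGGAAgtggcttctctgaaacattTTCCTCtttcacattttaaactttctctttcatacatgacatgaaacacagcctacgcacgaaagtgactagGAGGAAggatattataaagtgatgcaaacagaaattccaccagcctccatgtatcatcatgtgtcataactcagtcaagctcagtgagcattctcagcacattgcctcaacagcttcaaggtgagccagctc
BAK1: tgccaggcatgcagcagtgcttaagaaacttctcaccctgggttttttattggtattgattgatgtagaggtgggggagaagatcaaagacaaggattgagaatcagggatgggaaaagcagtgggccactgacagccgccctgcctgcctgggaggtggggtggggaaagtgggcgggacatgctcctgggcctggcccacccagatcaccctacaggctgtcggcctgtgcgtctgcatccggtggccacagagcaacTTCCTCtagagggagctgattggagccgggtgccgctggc
BAX: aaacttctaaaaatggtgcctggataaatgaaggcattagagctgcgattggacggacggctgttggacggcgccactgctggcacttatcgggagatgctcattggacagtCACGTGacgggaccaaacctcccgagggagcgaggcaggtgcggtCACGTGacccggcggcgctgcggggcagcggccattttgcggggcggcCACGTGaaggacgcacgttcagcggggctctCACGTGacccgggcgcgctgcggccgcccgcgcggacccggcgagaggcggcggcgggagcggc
PMAIP1: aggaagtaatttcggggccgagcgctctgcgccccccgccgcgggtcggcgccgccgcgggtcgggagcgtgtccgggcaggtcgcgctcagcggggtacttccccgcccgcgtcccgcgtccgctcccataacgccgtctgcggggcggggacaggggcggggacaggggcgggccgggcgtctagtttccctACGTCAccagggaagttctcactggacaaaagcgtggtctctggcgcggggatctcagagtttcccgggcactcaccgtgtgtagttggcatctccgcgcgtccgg
The BAX window held CACGTG at 4 places, and 7.26% of all 35116 promoter windows of 300 bases in the table held it at least once. GAGGAA matched the BCL2A1 window at 3 places and the BAK1 window at 1, against 27.9% of all windows with a match. ACGTCA matched the PMAIP1 window at 1, against 7.98%. Among members not shown, CACGTG was in some BID windows (1 place each), and GAGGAA in a BCL2L1 window (1) and some BID windows (2 each). The kappaB motif, the octamer ATGCAAAT, the AP-1 letters TGANTCA and the full element TGACGTCA, searched on both strands, were in none of the members' windows, against 1.91%, 1.77%, 7.71% and 1.85% of all windows. The core of the interferon-stimulated response element was in the BCL2A1 window among the members and in 3.57% of all windows. These are letter matches, and binding was not measured.

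Among the survival members, BCL2 itself gave different pictures at its 4 probe sets. At 203685_at the values were 7.16 and 6.73 in Namalwa, 5.49 and 5.71 in SU-DHL4, 5.19 and 5.63 in SU-DHL6, 7.55 in L363, 7.91 in U266 and 9.32 in LP1. There the PCM arrays read higher than every B-cell array, LP1 was the highest and both SU-DHL lines were the lowest. At 203684_s_at, the main probe set, all line means lay within 0.74 of each other, from 6.90 in SU-DHL6 to 7.63 in LP1, and no gap between neighbouring lines exceeded the largest duplicate difference (0.59). At 207004_at the PCM values of 7.17 to 7.50 also lay above the B-cell line means, whereas at 207005_s_at Namalwa was the lowest (6.11 and 6.09) and SU-DHL4 the highest (6.74 and 6.77). The 3 PCM arrays carried the same deposited value, 6.52, at 207005_s_at, as they did at 59 of all 22215 probe sets (0.266%). SU-DHL4 and SU-DHL6 are known for translocations of BCL2 into the immunoglobulin heavy chain locus, with breaks that often fall downstream of the coding region, and the part of the transcript that each probe set reads was not used here.

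**Figure D1:**
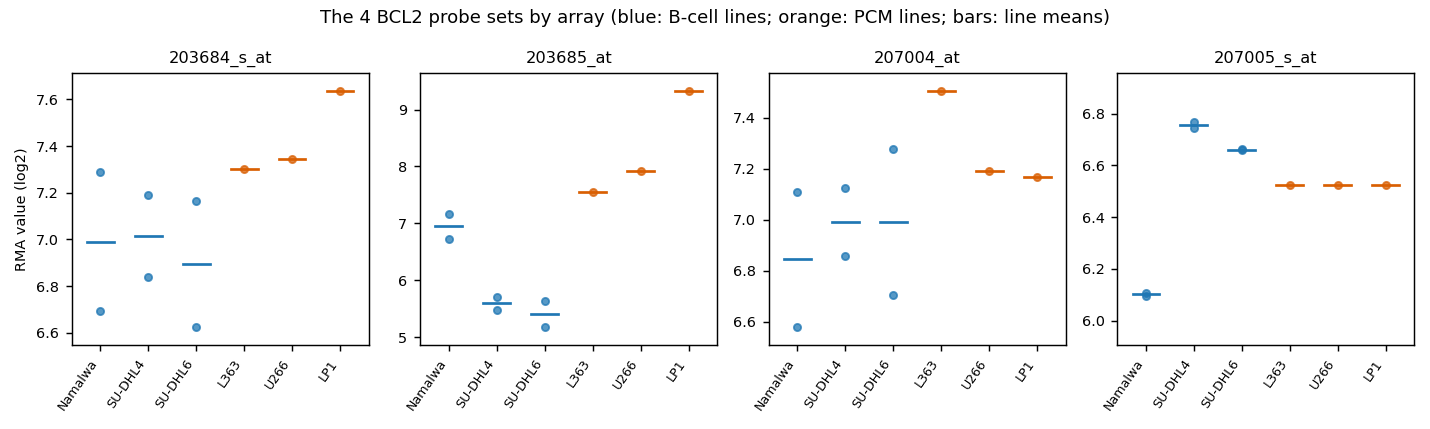
RMA values (log2, vertical axes) of the 4 BCL2 probe sets on the 9 arrays, by cell line; points are arrays, bars are line means, blue marks B-cell lines and orange PCM lines, and each panel has its own scale. At 203685_at the line means spread from 5.41 (SU-DHL6) to 9.32 (LP1), while at 207005_s_at the PCM arrays share 1 value.

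MCL1, a short-lived survival protein, was read by 5 probe sets of very different brightness. At 200797_s_at, its main probe set, the values were 10.77 and 10.72 in Namalwa, 10.59 and 10.37 in SU-DHL4, 10.96 and 11.15 in SU-DHL6, 10.67 in L363, 10.93 in U266 and 11.57 in LP1. LP1 stood above the next line, SU-DHL6, by 0.52, more than the largest duplicate difference (0.22), and no other neighbouring lines did so. LP1 was also the highest line at 200796_s_at (9.55) and 200798_x_at (10.97). The SU-DHL6 duplicates disagreed at these, with 8.36 and 6.41 at 200796_s_at and 10.15 and 9.26 at 200798_x_at, where the second array was the lowest of all 9. The remaining 2 MCL1 probe sets, 214056_at and 214057_at, were dim and stayed between 5.65 and 6.43 on all arrays.

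BCL2A1, an NF-kB target gene that encodes the survival protein BFL1, was the survival member that separated the lines most at its main probe set. Its values at 205681_at were 6.98 and 6.69 in Namalwa, 5.78 and 5.54 in SU-DHL4, 5.58 and 5.69 in SU-DHL6, 4.92 in L363, 5.02 in U266 and 4.82 in LP1. This only probe set of BCL2A1 was dim, with every array below the median level of all probe sets (7.03). Namalwa was the highest line, 1.18 above SU-DHL4, the SU-DHL lines followed, and the PCM lines were the lowest; the largest duplicate difference was 0.29. BCL2L1, which encodes BCL-XL, was the most even member. Its main probe set 212312_at ran from 7.26 in SU-DHL4 to 7.77 in SU-DHL6 with duplicate differences of up to 0.40, so that no neighbouring lines differed beyond their spread. At 206665_s_at the SU-DHL6 duplicates alone (5.87 and 4.89) spread wider than the 6 line means, and at 215037_s_at the arrays ran from 6.49 to 7.37, the low end in SU-DHL6 and the high end in Namalwa.

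The pore-formers BAX and BAK1 were ordered differently across the lines. BAX at 211833_s_at read 8.23 and 7.99 in Namalwa, 8.90 and 8.85 in SU-DHL4, 9.06 and 8.60 in SU-DHL6, 6.75 in L363, 8.02 in U266 and 7.40 in LP1. The SU-DHL lines were the highest and L363 the lowest, and Namalwa and U266 lay 0.10 apart, within the duplicate spread (0.46). The dimmer BAX probe set, 208478_s_at, read 7.20 and 6.53 in Namalwa, 7.58 and 7.61 in SU-DHL4, 7.86 and 7.48 in SU-DHL6, 6.50 in L363, 7.13 in U266 and 6.37 in LP1. The SU-DHL lines were the highest there too, but LP1 rather than L363 was the lowest and the classes overlapped. BAK1 (203728_at) read 7.80 and 7.65 in Namalwa, 8.31 and 8.33 in SU-DHL4, 8.58 and 8.50 in SU-DHL6, 8.42 in L363, 8.60 in U266 and 9.39 in LP1. Here LP1 was the highest line, 0.79 above U266, and Namalwa the lowest, 0.60 below SU-DHL4, both gaps beyond the largest duplicate difference (0.14).

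Of the BH3-only members, PMAIP1 and BIK had wide ranges across the lines and BID and BCL2L11 narrower ones. PMAIP1, which encodes NOXA, an antagonist of MCL1, read 11.23 and 10.56 in Namalwa, 10.07 and 10.53 in SU-DHL4, 9.26 and 10.62 in SU-DHL6, 6.27 in L363, 8.09 in U266 and 9.01 in LP1 at 204285_s_at. Every PCM value lay below every B-cell value, and L363 was the lowest by 1.82, more than the largest duplicate difference (1.36). Its other probe set, 204286_s_at, gave 9.47 and 9.02, 8.19 and 8.47, 7.20 and 9.22, 4.74, 5.93 and 7.14 in the same order of arrays. BIK, a BH3-only protein of the endoplasmic reticulum, read at 205780_at 9.88 and 10.45 in Namalwa, 7.93 and 7.79 in SU-DHL4, 10.14 and 8.06 in SU-DHL6, 7.45 in L363, 6.92 in U266 and 6.59 in LP1. The PCM lines were again below all B-cell arrays, but the SU-DHL6 duplicates differed by 2.08, more than any gap between neighbouring lines. BID, which caspase cleavage turns into its active form, read 7.68 and 7.59 in Namalwa, 8.23 and 8.79 in SU-DHL4, 6.91 and 6.65 in SU-DHL6, 8.22 in L363, 8.29 in U266 and 7.98 in LP1 at 204493_at. SU-DHL6 was the lowest line there and at the brighter 211725_s_at, where its arrays read 8.78 and 7.83. BCL2L11, which encodes BIM, read 6.76 and 7.04 in SU-DHL4 and 5.96 in LP1 at 222343_at, the highest and lowest of the 6 lines, and both of its probe sets lay, in their mean over the lines, below the median level of all probe sets.

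**Figure D2:**
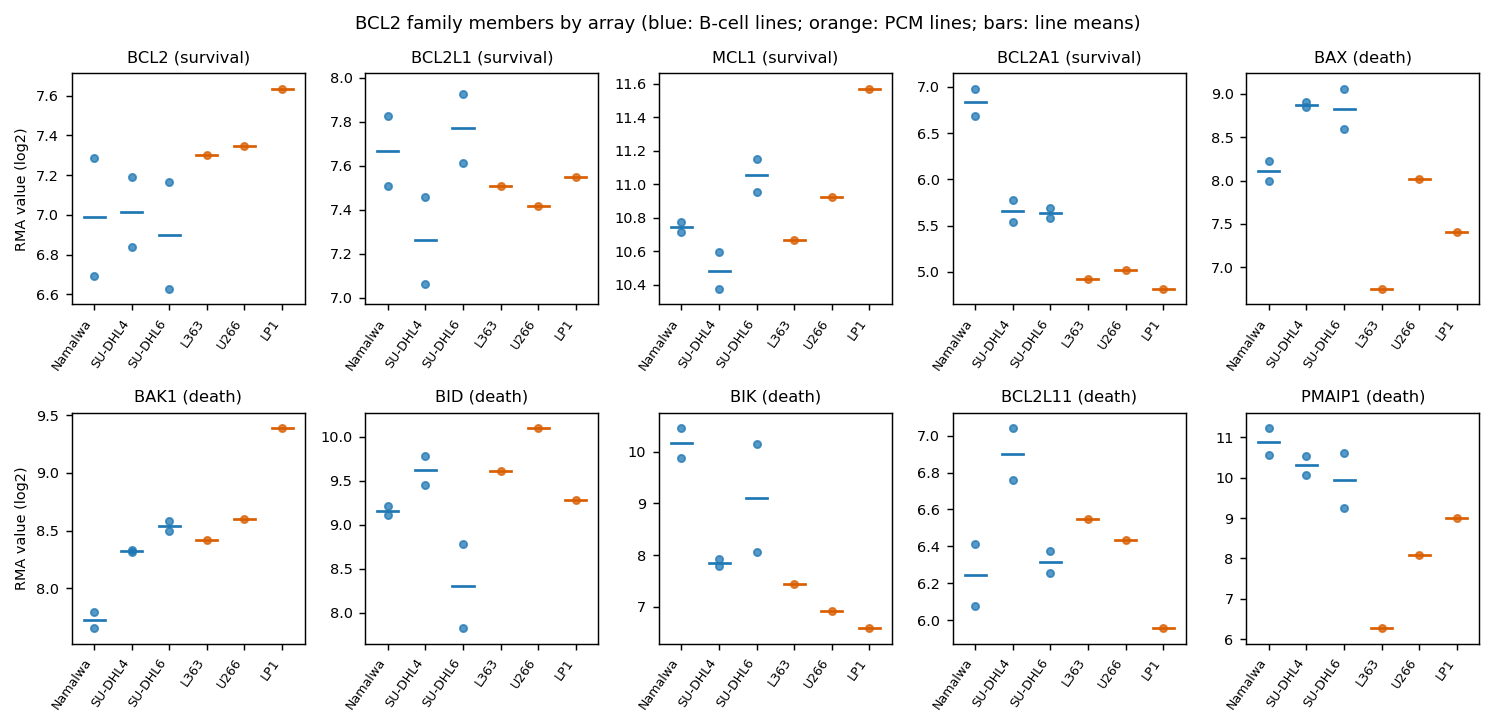
RMA values (log2, vertical axes) of the main probe set of each of the 10 members on the 9 arrays, by cell line; points are arrays, bars are line means, blue marks B-cell lines and orange PCM lines, and each panel has its own scale. PMAIP1, BIK and BCL2A1 are lower in all 3 PCM lines than on any B-cell array, and the SU-DHL6 arrays lie far apart at BIK (10.14 and 8.06).

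Arrays of 1 line did not always agree on these members. Between the SU-DHL6 duplicates 4 of the 23 member probe sets (17.4%) differed by more than 1 (log2), against 423 of all probe sets (1.9%), namely both of PMAIP1, that of BIK and 200796_s_at of MCL1. No member probe set did so between the duplicates of Namalwa (0.329% of all probe sets) or SU-DHL4 (0.302%). Between the L363 and U266 arrays 3 did (13%, against 1.24% of all probe sets), both of PMAIP1 and 211833_s_at of BAX, each higher on the U266 array. These counts describe single pairs of arrays and carry no test.

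No member changed between PCM and B-cell lines by the test over all probe sets, although several had large differences. With the line as the replicate (3 against 3, limma with Benjamini-Hochberg adjustment), 0 of the 23 member probe sets passed an adjusted p under 0.05, against 2.79% of all probe sets (1.12% higher and 1.67% lower in PCM lines), and 8 (34.8%) had an unadjusted p under 0.05, against 19.7% of all probe sets. The 3 PCM lines lay entirely above or below the 3 B-cell lines at 10 of 23 (43.5%), 5 in each direction, against 28.2% of all probe sets (16.9% above and 11.3% below). The median difference over the 23 was 0.06, against 0.05 over all probe sets, and the median size of the difference was 0.50 against 0.18. The question was which members distinguish a myeloma line from a B-cell lymphoma line, and why none passed was not tested.

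The members with the largest differences were the BH3-only genes PMAIP1 and BIK, lower in PCM lines, and BCL2 at 1 probe set, higher. PMAIP1 averaged 7.79 ± 1.39 (SD, n = 3) in PCM lines and 10.38 ± 0.48 (SD, n = 3) in B-cell lines at 204285_s_at, a difference of -2.59 (95% interval -4.37 to -0.81, adjusted p = 0.138). Its second probe set differed by -2.66 (-4.27 to -1.06, adjusted p = 0.106). BIK averaged 6.99 ± 0.44 against 9.04 ± 1.16, a difference of -2.05 (-3.55 to -0.56, adjusted p = 0.153). BCL2 at 203685_at averaged 8.26 ± 0.93 against 5.98 ± 0.84, a difference of 2.28 (0.76 to 3.79, adjusted p = 0.130), while its other 3 probe sets differed by 0.02 to 0.46. BAX differed by -1.21 (-2.15 to -0.28, adjusted p = 0.169) at 211833_s_at and by -0.71 (-1.46 to 0.03, adjusted p = 0.267) at 208478_s_at, and BCL2A1 by -1.12 (-1.97 to -0.28, adjusted p = 0.163).

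Other members differed less, with intervals that include 0. MCL1 differed by 0.29 (-0.38 to 0.97) at its main probe set and by 0.89 (-0.07 to 1.85) at 200796_s_at. BCL2L1 differed by -0.07 (-0.44 to 0.29), BAK1 by 0.61 (-0.21 to 1.42), BID by 0.64 (-0.32 to 1.59) and BCL2L11 by -0.17 (-0.77 to 0.42) at their main probe sets. The authors' deposited table, which treats each of the 9 arrays as a replicate and in which 9.85% of probe sets pass, had an adjusted p under 0.05 at 4 of the 23, namely 203685_at of BCL2 (0.0282), 211833_s_at of BAX (0.0424) and both of PMAIP1 (0.0270 and 0.0264). Without LP1, where the PCM group is L363 and U266 alone, 204286_s_at of PMAIP1 fell by 3.26 (adjusted p = 0.0428). Single lines moved several differences by more than 1.5 times: without Namalwa that of BCL2A1 was -0.73, without LP1 those of BAK1 and MCL1 (200797_s_at) were 0.31 and 0.04, without SU-DHL6 those of BID were 0.27 and 0.09, and that of BCL2L11 at 222343_at ran from -0.29 to 0.04 over all alternatives.

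**Figure D3:**
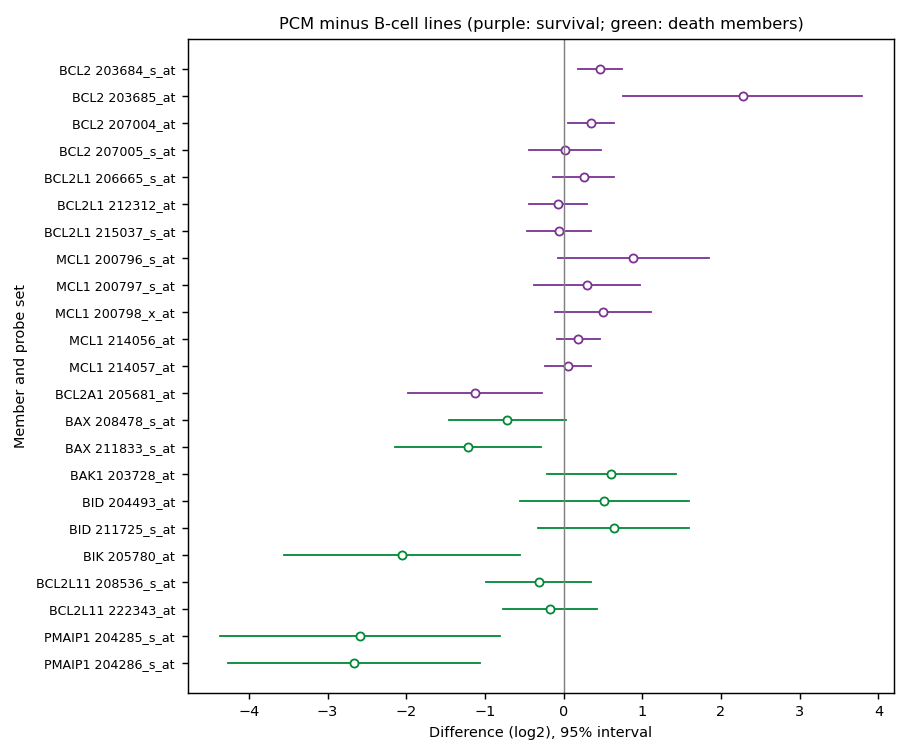
Difference between the mean of the 3 PCM lines and the mean of the 3 B-cell lines (log2, horizontal axis) for each of the 23 member probe sets; bars are 95% intervals of limma, purple marks survival and green death members, and open points have an adjusted p of 0.05 or more. All points are open, and PMAIP1 (-2.59 and -2.66) and BCL2 at 203685_at (2.28) lie farthest from 0.

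Namalwa differed from the SU-DHL lines in survival and pore-forming members alike. With line as a factor on the 6 B-cell arrays, where the spread is that between duplicate arrays, 5 of 23 member probe sets changed, 2 higher and 3 lower in Namalwa, from 4 genes, against 9.01% of all probe sets (4.7% higher and 4.31% lower). BCL2A1 was higher in Namalwa by 1.19 (SE 0.12, adjusted p = 0.00594). The pore-former genes BAK1 and BAX were lower, at differences of -0.71 for BAK1 (SE 0.08, adjusted p = 0.00813) and -0.74 for 211833_s_at of BAX (SE 0.15, adjusted p = 0.0403); 208478_s_at of BAX differed by -0.77 (SE 0.21, adjusted p = 0.0940). BCL2 went both ways, with 203685_at higher by 1.44 (SE 0.18, adjusted p = 0.0103) and 207005_s_at lower at a difference of -0.61 (SE 0.07, adjusted p = 0.00795). BIK had a larger difference, 1.69 (95% interval 0.29 to 3.09, adjusted p = 0.157), that did not pass while both SU-DHL6 arrays were in the group, and against SU-DHL4 alone it rose by 2.31 (adjusted p = 0.00713). None of the 5 calls was left when either Namalwa array was dropped, and dropping either SU-DHL4 array removed those of 203685_at and BAX.

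SU-DHL6 carried less BID transcript than SU-DHL4. BID fell by 1.73 (SE 0.20, adjusted p = 0.00835) at 204493_at and differed by -1.32 (SE 0.31, adjusted p = 0.0649) at its main probe set, and MCL1 rose by 0.57 (SE 0.12, adjusted p = 0.0466) at its main probe set. The other bright MCL1 probe sets had the opposite sign, -0.89 (SE 0.62, adjusted p = 0.471) at 200796_s_at and -0.34 (SE 0.29, adjusted p = 0.557) at 200798_x_at. These 2 of 23 probe sets compare with 8.52% of all probe sets (3.75% higher and 4.77% lower). BCL2L11 differed by -0.66 (SE 0.14, adjusted p = 0.0509) at 208536_s_at and by -0.59 (SE 0.16, adjusted p = 0.0869) at 222343_at. The BID difference passed under all 14 alternatives tried (adjusted p from 0.00474 to 0.0457), whereas the MCL1 difference lost its call under 9 of 13, among them the fits without either Namalwa array, either SU-DHL4 array or the second SU-DHL6 array (adjusted p up to 0.229). Without the first SU-DHL6 array 5 probe sets passed, with MCL1 lower at 200796_s_at (-1.87) and higher at 200797_s_at. BIK differed by 1.24 (95% interval -0.38 to 2.86, adjusted p = 0.339), and by 2.28 (adjusted p = 0.0146) without the second SU-DHL6 array.

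By the test, the LP1 array was higher than those of L363 and U266 at 1 probe set each of BCL2, MCL1 and BAK1. PCM lines had single arrays, so the spread in this fit is that of the B-cell duplicates alone, LP1, L363 and U266 are assumed to vary like them, and the test compares these arrays rather than replicated lines. BCL2 rose by 1.59 (SE 0.26, adjusted p = 0.0219) at 203685_at, MCL1 by 0.77 (SE 0.15, adjusted p = 0.0348) at 200797_s_at and BAK1 by 0.88 (SE 0.12, adjusted p = 0.0118). These 3 of 23 probe sets compare with 8.2% of all probe sets (4.96% higher and 3.25% lower), and no member fell. The other BCL2 probe sets differed by 0.31 (SE 0.33) at 203684_s_at and -0.18 (SE 0.32) at 207004_at, and were equal at 207005_s_at. The other bright MCL1 probe sets were also higher in LP1 but not called, by 0.94 (SE 0.75) at 200796_s_at and 0.76 (SE 0.35) at 200798_x_at. PMAIP1 differed by 1.83 (95% interval 0.36 to 3.29, adjusted p = 0.145) at 204285_s_at, and BCL2L11 by -0.54 and -0.58 (adjusted p = 0.184 and 0.127). Without L363, or without any 1 array of Namalwa or SU-DHL4, only BAK1 kept its call, without U266 all 3 probe sets kept theirs, and without either SU-DHL6 array 6 probe sets passed, both of PMAIP1 among them (adjusted p = 0.0397 and 0.0159).

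**Figure D4:**
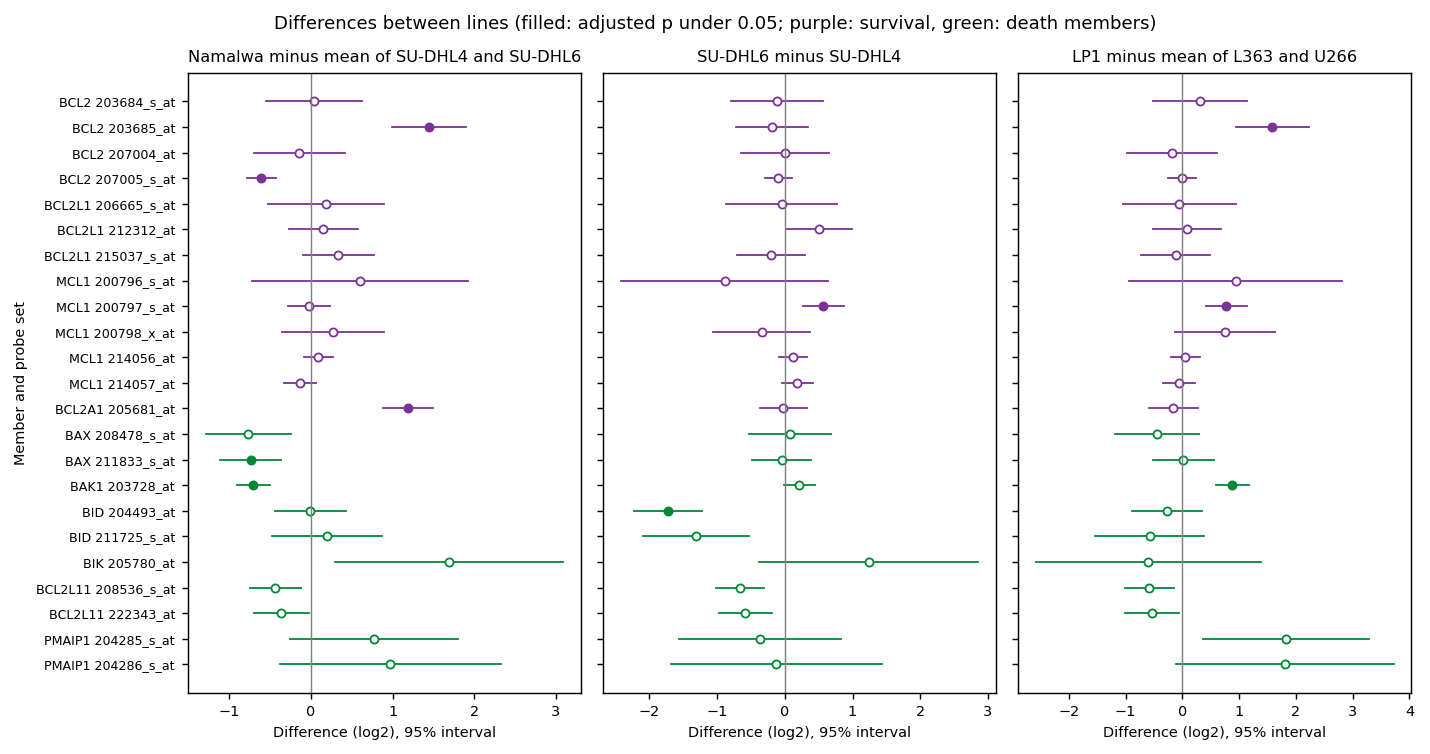
Differences between lines (log2, horizontal axes) for the 23 member probe sets, with Namalwa minus the mean of the SU-DHL lines, SU-DHL6 minus SU-DHL4, and LP1 minus the mean of L363 and U266 from left to right; bars are 95% intervals of limma, filled points have an adjusted p under 0.05, and purple marks survival and green death members. BCL2A1 (1.19) and BAK1 (-0.71) are filled in the Namalwa panel, BID at 204493_at (-1.73) in the SU-DHL6 panel and BAK1 (0.88) in the LP1 panel.

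The mix of each line is described here by how far each member's line mean lay from the mean of the 6 lines at the main probe set. Highest and lowest here give the order of line means at the main probe sets. Only some first or last places stood beyond the largest duplicate difference. They were the highest BCL2A1 and lowest BAK1 in Namalwa, the highest BCL2L11 in SU-DHL4 and the lowest BAX and PMAIP1 in L363. The highest MCL1 and BAK1 in LP1 completed them. Other probe sets had more such places. BCL2 at 203685_at read 9.32 in LP1 against 7.91 in U266, the next line (largest duplicate difference 0.44). BID at 204493_at averaged 6.78 in SU-DHL6 against 7.64 in Namalwa, the next line (0.56). Namalwa combined the highest BCL2A1 (1.35 above the mean of the lines) with the highest BIK (2.15) and PMAIP1 (1.81) and the lowest BAK1 (-0.77). SU-DHL4 had the highest BAX (0.88) and BCL2L11 (0.50) and the lowest MCL1 (-0.42) and BCL2L1 (-0.27). SU-DHL6 had the highest BCL2L1 (0.24), with BAX at 0.83 and BIK at 1.08, and the lowest BID (-1.04) and BCL2 (-0.30).

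In all 3 PCM lines PMAIP1, BIK and BCL2A1 lay below the mean of the lines. BCL2 lay above it in all 3 (0.10 in L363, 0.15 in U266 and 0.44 in LP1), by less than its largest duplicate difference (0.59). The other members varied. L363 had the lowest PMAIP1 (-2.81) and BAX (-1.25) and no member at its highest. U266 had the highest BID (0.75) and no member at its lowest, and its PMAIP1 and BIK lay at -0.99 and -1.09. LP1 had the highest BCL2 (0.44), MCL1 (0.66) and BAK1 (0.89) together with the lowest BIK (-1.43), BCL2L11 (-0.44) and BCL2A1 (-0.67).

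Averaged over the 4 survival and the 6 death members, the deviation was larger for death members than for survival members in each B-cell line and smaller in each PCM line. The survival average minus the death average was -0.21 in Namalwa, -0.60 in SU-DHL4 and -0.22 in SU-DHL6, against 0.54 in L363, 0.10 in U266 and 0.40 in LP1. The second SU-DHL6 array alone gave 0.04 and the first -0.48, so this line did not have a settled sign. These averages give genes of unequal range unequal weight and carry no test. PMAIP1 and BIK had the widest ranges of the death members, and the signs in Namalwa and U266 rest on each of them. Their deviations in these lines were 1.81 and -0.99 for PMAIP1 and 2.15 and -1.09 for BIK. Where gene averages replaced the main probe set, 8 of 10 members kept their highest line.

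**Figure D5:**
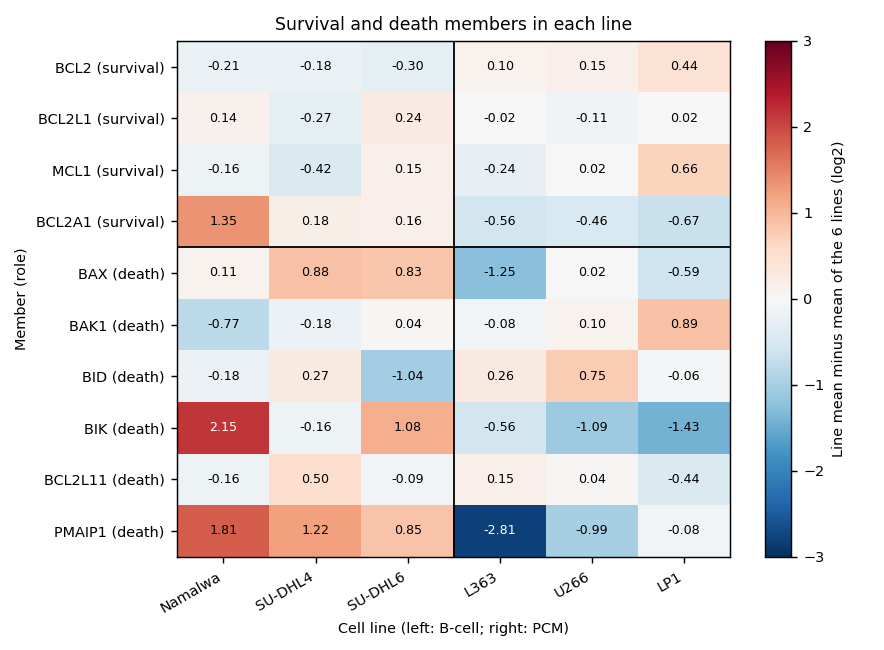
Deviation of each member's line mean from the mean of the 6 lines (log2, colour and printed value) at its main probe set, with members in rows (survival above, death below the black line) and lines in columns (B-cell left, PCM right). PMAIP1 runs from 1.81 in Namalwa to -2.81 in L363, and BAK1 from -0.77 in Namalwa to 0.89 in LP1.

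At their main probe sets, BIK and PMAIP1 were the members with a standard deviation over 1 (log2) across the 6 line means. The genes most like them were sought among 532 genes whose standard deviation was also over 1. BIK was most like BMP7, a bone morphogenetic protein (Pearson r 0.98 over 6 lines), CD24, a surface sialoglycoprotein (0.96), and RUBCNL (0.94). PMAIP1 was most like QKI, an RNA-binding protein (0.99), MTA1, a subunit of the NuRD chromatin complex (0.98), and PPP2R5C, a regulatory subunit of protein phosphatase 2A (0.98). All values come from the same 6 lines and arrays, and with 6 points high correlations are easily met.

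Of the other genes of the pathway, 3 passed the test between the classes, and the shares below compare with 1.12% of all probe sets higher and 1.67% lower. Counted at main probe sets, as these genes are, 159 of 11963 named genes were higher and 236 lower. Of 14 other BCL2 family genes that could be named of 18, 1 fell in PCM lines and none rose, BCLAF1, which encodes a nuclear BCL2-associated factor (-1.04, SE 0.16, adjusted p = 0.0415). Of 17 mitochondrial apoptosis genes of 22, 1 fell, BIRC5, which encodes the inhibitor survivin (-0.72, SE 0.10, adjusted p = 0.0272), and of 15 regulators of BCL2 proteins of 17, 1 rose, the co-chaperone gene BAG3 (1.47, SE 0.25, adjusted p = 0.0490). The median differences of these lists were 0.10, 0.04 and -0.08, against 0.05 over all named genes, and the median sizes were 0.31, 0.18 and 0.34, against 0.19. BCLAF1 lost its call under 8 of 17 alternatives, BIRC5 under 10 of 17 and BAG3 under 11 of 16 (adjusted p up to 0.139, 0.110 and 0.155). BAD differed by 0.32 (adjusted p = 0.272), BCL2L2, which encodes BCL-W, by 0.41 (0.274), HRK by -0.19 (0.765) and BOK by 0.09 (0.592), and BBC3 and BMF had no probe set that could be named.

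Between lines more of these genes passed, as more of all probe sets did. In Namalwa the BH3-only gene HRK (1.03, SE 0.09, adjusted p = 0.00321), BCAP31 (0.46) and BAG3 (0.45) rose against the SU-DHL lines. BAG1 fell there by 0.85, and 5 of 17 mitochondrial apoptosis genes fell and none rose: ENDOG, which encodes endonuclease G (-1.13), AIFM1, which encodes apoptosis-inducing factor (-0.54), PPIF (-0.49), SLC25A4 (-0.42) and the channel gene VDAC2 (-0.41), against 4.31% of all probe sets lower and 4.7% higher. At main probe sets, 609 of 11963 named genes were lower in Namalwa and 614 higher. In SU-DHL6 the protease gene HTRA2 rose by 0.67 against SU-DHL4, and BCL2L13 (-0.89), BAG1 (-0.85), VDAC1 (-0.66) and PPIF (-0.58) fell. In LP1 the BAX-binding gene MOAP1 rose by 1.76 (SE 0.27, adjusted p = 0.0177) against L363 and U266, with BAG5 (1.14), HTRA2 (0.77) and YWHAZ (0.61), while BCAP31 (-1.03), TMBIM6 (-0.61) and BCL2L2 (-0.58) fell. Adjusted p-values of the genes given here without one lay between 0.0076 and 0.0497. Of the 24 calls of these genes in the 4 comparisons, only that of BCAP31 in LP1 held under every alternative, and that of TMBIM6 held under none of 13.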

How the data were processed

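Expression was measured on 9 Affymetrix arrays of 6 cell lines. Per the submitters' processing notes and the series' design text, RMA gave the deposited log2 values; its version and the set of arrays it was run on are not stated there. Another deposited table holds, per the file headers, a p-value, a Benjamini-Hochberg adjusted p-value and a log2 difference per probe set; its difference equals the B-cell minus the PCM mean to within 5e-08, so its sign was turned.

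No normalization was added, and tests were run in limma 3.58.1 (R 4.3.3). Of 22283 probe sets, 68 controls were left out; 19065 of the other 22215 had 1 symbol in the platform annotation. The members and gene lists were chosen with earlier results of these data known. For PCM against B-cell lines the duplicate arrays of a line were averaged (4 residual degrees of freedom); comparisons between lines used line as a factor (3 residual degrees of freedom). Tests were two-sided, adjusted over all 22215 probe sets and called at an adjusted p under 0.05. With 3 lines a side, the smallest p of an exact permutation test is 0.1. The p-values measure the spread between these lines or arrays, which for duplicate arrays may be technical, and the number of arrays limits precision. All member probe sets were analysed and the text names each of them; genes of the wider lists are named where they pass a test, or are BCL2L2, BAD, BBC3, BMF, HRK or BOK. The tests were tested on simulated data.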

Additional observations from a re-analysis of the deposited data

How the results depend on the processing

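The number of member probe sets called varied over the alternatives, among them the arrays used, the threshold and the probe sets tested. For PCM against B-cell lines it was 0 of 23, and 4 with each of the 9 arrays as a replicate, 4 in the authors' deposited table and 1 with line as a random block; with each line left out in turn it ran from 0 to 1. It stayed 0 with array 1 or 2 alone of each B-cell line, quantile normalization, 75th percentile centring, probe sets above the median level, no _x_at and _s_at probe sets, trend and robust eBayes, a threshold of 0.01, and L363 and U266 averaged. For SU-DHL6 against SU-DHL4 it was 2, and 1 without _x_at and _s_at probe sets and 1 at a threshold of 0.01, and from 1 to 5 with 1 array left out. For Namalwa it was 5, and 3 with probe sets above the median level, 3 without _x_at and _s_at probe sets and 3 at a threshold of 0.01, the first 2 of which test fewer probe sets, and from 0 to 7 with 1 array left out; Namalwa against SU-DHL4 alone, an alternative chosen after seeing the data, gave 7. For LP1 it was 3, and 0 at a threshold of 0.01, and from 1 to 6 with 1 array left out. The cause of the other changes was not tested. No called difference of a member or a named gene of the wider lists turned direction under any alternative. Over all probe sets, the calls for PCM numbered 619 (75 to 2189 over the alternatives), for SU-DHL6 1892 (319 to 2545), for Namalwa 2001 (187 to 2607) and for LP1 1822 (626 to 2431).

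The replicate block, with the array number as a block, gave 1 member probe set for SU-DHL6 against SU-DHL4, where MCL1 at 200797_s_at lost its call (adjusted p = 0.0940), and 5 for Namalwa. The array numbers were not used as pairs, since deviations of same-numbered arrays correlated at -0.444, -0.15 and 0.199 between lines.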
